A study of Arabidopsis thaliana with 24 samples.

Results

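The comparison described here is that of the Arabidopsis thaliana mutant exa1-1 with the wild type Col-0 at 23 °C, across all expressed genes. The 6 libraries, 3 of exa1-1 and 3 of wild type, were chosen by genotype and treatment labels from 24 libraries in all. Each was a strand-specific mRNA sequencing library from about 50 mg of whole seedlings, 9 days old, grown on 1/2 MS (Murashige and Skoog salts) with 1% sucrose and held at 23 °C for 60 min. They are the unstressed controls of a heat series. The other groups used below are exa1-1 and wild type at 39 °C for 60 min, and both genotypes on 1/2 MS for 60 min, the unstressed control of a separate salt series, with 3 libraries each. The mutant is 1 line, and whole seedlings mix root, stem and leaf cells. The series description calls the replicates biological, but nothing ties a replicate number to a culture or a day.

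The EXA1 protein carries a GYF domain, which recognizes proline-rich stretches of other proteins. It is known as a partner of the cap-binding initiation factors, as a host factor that potexviruses need in order to accumulate, and as a protein that limits the accumulation of NLR immune receptors. The libraries measure mRNA levels, and neither translation nor protein was measured in them.

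EXA1 mRNA (AT5G42950, chr5:17224270-17231384 of TAIR10.1, plus strand) was read first, as a check of the labels. The exa1-1 libraries held 1094, 1162 and 979 counts, against 3914, 4363 and 4606 counts in wild type. In CPM (counts relative to the size of the library, scaled by TMM factors) that was 37.6, 39.1 and 35.3 in exa1-1, against 167, 158 and 162 in wild type. The genotypes did not overlap, and EXA1 was 4.34-fold lower in exa1-1, with a log2 difference of -2.12 ± 0.05 (SE, n = 3 each; edgeR adjusted p = 6.25e-12). Its mRNA was therefore reduced but still present, and which exons the remaining reads covered was not analysed here. Neither of its homologues was called: AT1G24300 was at -0.02 ± 0.04 and AT1G27430 at -0.13 ± 0.04 (SE).

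A second gene, AT1G64795, was read only in mutant libraries at 23 °C. AT1G64795, an uncharacterized protein gene on another chromosome, had 1626, 1575 and 1410 counts in exa1-1, against 0, 0 and 0 counts in wild type. Taking a floor of 3 counts over the wild-type group, it was at least 1412-fold higher in exa1-1. Over the whole series, the 12 exa1-1 libraries held 378 to 1626 counts, against 0 to 3 counts in the 12 wild-type libraries, 9 of which held none. The gene spans chr1:24082579-24082848 of TAIR10.1 on the plus strand, has 2 exons and overlaps ILA (AT1G64790), which lies on the opposite strand. Of its 201 exon bases, 142 lie inside an exon of ILA and 59 do not. Its sequence, from RefSeq's TAIR10.1, is shown because the part outside the overlap is where its own exon bases can be seen. Capitals mark the exon bases outside the ILA exon.
AT1G64795: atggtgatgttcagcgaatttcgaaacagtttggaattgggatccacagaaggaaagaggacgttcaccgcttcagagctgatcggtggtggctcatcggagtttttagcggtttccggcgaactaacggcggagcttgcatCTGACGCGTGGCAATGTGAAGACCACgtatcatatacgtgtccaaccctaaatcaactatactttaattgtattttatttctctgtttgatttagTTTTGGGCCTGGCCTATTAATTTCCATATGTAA
ILA itself, which encodes a HEAT-repeat protein, averaged 104 CPM in exa1-1 and 90.0 CPM in wild type (log2 0.21 ± 0.08, SE; edgeR adjusted p = 0.0482). It was named after its values were seen, and it did not pass without wild-type replicate 1 or 3 or exa1-1 replicate 2 or 3, nor with limma on FPKM. Whether the authors counted by strand is not stated in the labels, so reads of ILA and of AT1G64795 cannot be told apart where the genes overlap.

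Of 20972 genes tested, 4077 (19.4%) differed between exa1-1 and wild type at an adjusted p under 0.05, with 1735 (8.27%) higher and 2342 (11.2%) lower in exa1-1. Most of the differences were small. The median change of a called gene was 0.37 on the log2 scale, and 2790 of the called genes (68.4%) changed by less than 0.5. Only 141 genes (0.672%) rose and 243 (1.16%) fell by log2 1 or more. The libraries of the genotypes did not overlap in 8018 genes (38.2%). The split between directions depended on scaling: with total counts in place of TMM factors, 2730 genes were higher and 1575 lower in exa1-1, so that 63.4% of calls were higher, against 42.6% with TMM, and limma on the deposited FPKM values gave 63.2%. The count fell to 2482 without wild-type replicate 1 and to 2525 without wild-type replicate 3. Called genes were spread over all 5 nuclear chromosomes, with 7.75 to 9.22% of tested genes higher and 10.3 to 12.1% lower on each. Of 564 lncRNA genes tested, 34 (6.03%) were higher and 15 (2.66%) lower. Within 1 Mb of EXA1, 33 of 394 genes (8.38%) were higher and 37 (9.39%) lower.

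Total counts ranged from 19614293 to 20965304 in exa1-1 libraries and from 17685639 to 20992263 in wild-type libraries. The genotypes lay apart on the first principal component (50.7% of the variance), and the second (17.6%) set exa1-1 replicate 3 apart, at -27.8 against 21.7 and 9.48 for the other exa1-1 libraries. That library is the highest or lowest of its group for several genes below, and where it decides a value this is said. As a check of the tissue label, markers of root and of green tissue were both abundant. The 8 seed storage genes on the list, 4 of them tested, summed to 7.01 to 19.0 CPM in exa1-1 and 6.67 to 15.3 CPM in wild type.

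**Figure D1:**
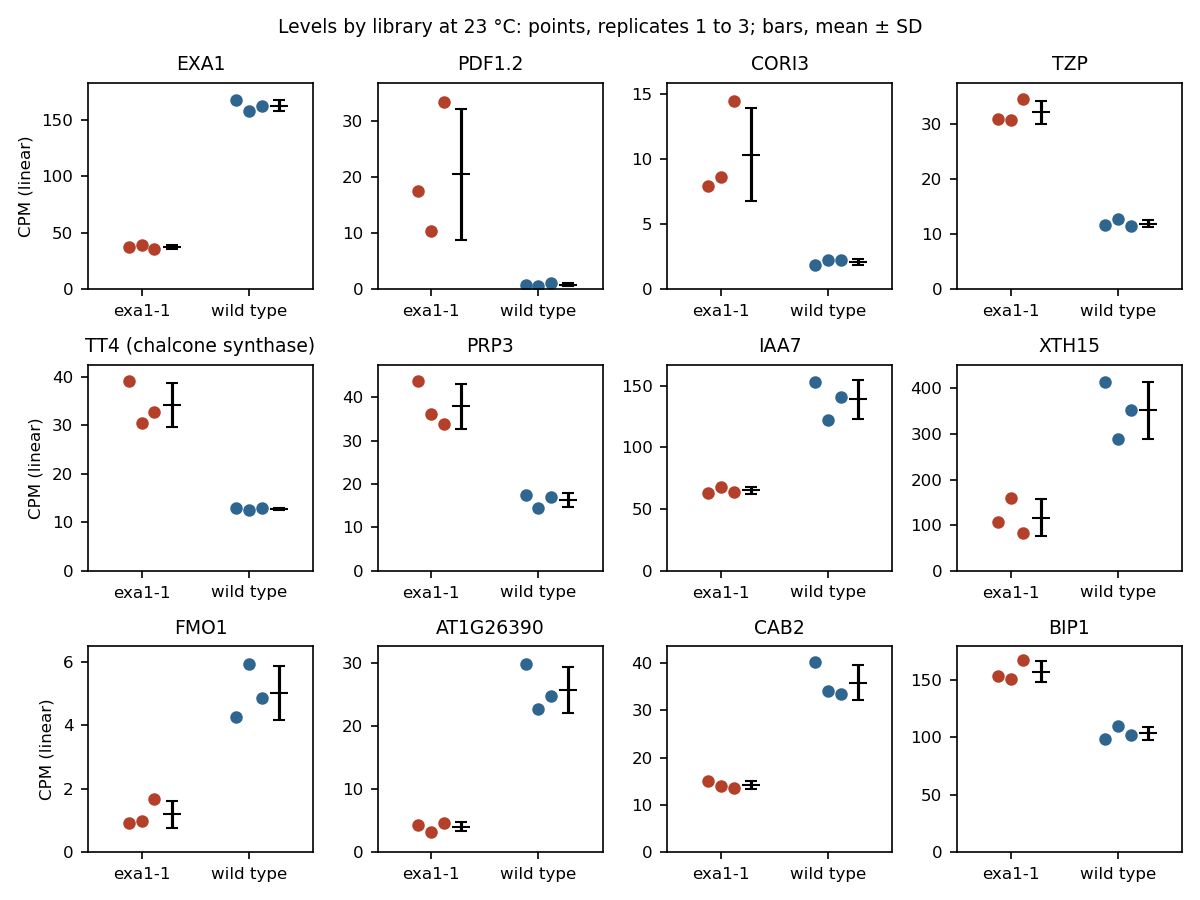
Levels of 12 genes in CPM on linear axes, exa1-1 libraries on the left (red) and wild-type libraries on the right (blue), with black marks for the mean and SD of 3 libraries. In each panel the 3 libraries of one genotype lie apart from those of the other, which was a condition of choice for some of these genes. EXA1 is at 35.3 to 39.1 CPM in exa1-1 and 158 to 167 CPM in wild type.

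Among genes that averaged at least 1 log2 CPM and did not overlap between genotypes, 3 plant defensin genes had the largest increases in exa1-1 after AT1G64795. PDF1.2 (AT5G44420), the standard marker of combined jasmonate and ethylene signalling, had 17.6, 10.5 and 33.4 CPM in exa1-1, against 0.811, 0.651 and 1.09 CPM in wild type. The difference was 4.57 ± 0.52 on the log2 scale (SE; edgeR adjusted p = 9.28e-07), a 23.7-fold increase. Its close relative PDF1.3 (AT2G26010) had 30.2, 23.1 and 61.1 CPM in exa1-1, against 1.32, 0.868 and 1.34 CPM in wild type (log2 5.02 ± 0.46, SE). PDF1.2c (AT5G44430) had 13.0, 8.35 and 19.6 CPM in exa1-1, against 0.384, 0.398 and 0.529 CPM in wild type (4.93 ± 0.37, SE). No overlap between genotypes was a condition of choosing these 3, and exa1-1 replicate 3 was the highest for each. PDF1.2b (AT2G26020) rested on few wild-type reads, with 112, 78 and 221 counts in exa1-1, against 2, 5 and 0 counts in wild type. These genes are near-identical copies, so how the reads divide among them is uncertain.

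The defensin promoters are shown because these genes moved together. Each is the stretch of 250 bases before the annotated start of transcription in RefSeq's TAIR10.1, written 5′ to 3′ along the gene. Capitals mark GCCGCC, the core of the GCC box that ethylene response factors are known to bind. The stretches are chr5:17907639-17907888 (minus strand) for PDF1.2, chr2:11088873-11089122 (plus) for PDF1.2b, chr5:17909508-17909757 (minus) for PDF1.2c and chr2:11087030-11087279 (plus) for PDF1.3.
PDF1.2: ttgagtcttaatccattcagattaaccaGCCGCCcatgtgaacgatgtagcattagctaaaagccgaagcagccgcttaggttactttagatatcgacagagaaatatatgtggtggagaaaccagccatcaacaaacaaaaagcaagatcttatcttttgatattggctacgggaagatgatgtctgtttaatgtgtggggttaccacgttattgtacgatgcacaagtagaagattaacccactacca
PDF1.2b: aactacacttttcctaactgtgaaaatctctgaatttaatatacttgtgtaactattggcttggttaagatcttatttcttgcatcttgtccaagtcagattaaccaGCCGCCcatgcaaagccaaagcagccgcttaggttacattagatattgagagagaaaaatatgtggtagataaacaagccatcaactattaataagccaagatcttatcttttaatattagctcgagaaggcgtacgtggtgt
PDF1.2c: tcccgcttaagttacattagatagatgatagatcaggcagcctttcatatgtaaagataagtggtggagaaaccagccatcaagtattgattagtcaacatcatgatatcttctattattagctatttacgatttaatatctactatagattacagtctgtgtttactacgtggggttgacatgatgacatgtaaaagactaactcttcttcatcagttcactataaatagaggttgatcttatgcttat
PDF1.3: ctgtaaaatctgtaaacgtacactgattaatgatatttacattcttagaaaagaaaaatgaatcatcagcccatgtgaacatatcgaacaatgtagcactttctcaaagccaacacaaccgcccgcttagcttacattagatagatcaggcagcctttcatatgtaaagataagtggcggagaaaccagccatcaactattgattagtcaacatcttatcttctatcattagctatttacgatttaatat
GCCGCC was searched on both strands. It occurred at bases -222 to -217 of PDF1.2 and -143 to -138 of PDF1.2b, counted back from the start, and not in the stretches of PDF1.2c or PDF1.3. Among all protein-coding genes, 513 of 27443 (1.87%) held it in the same stretch. The motif is a description of these letters, and binding was not measured.

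Other genes of jasmonate and pathogen defence rose beside the defensins, but not as a class. Of 13 tested members of the list of defensins and related defence genes, 5 were higher and 2 lower in exa1-1, and 1 gene was lower when any library but exa1-1 replicate 1 was left out or with total counts as scaling. PR4 (AT3G04720), a chitin-binding antifungal protein, had 237, 194 and 292 CPM in exa1-1, against 96.7, 105 and 101 CPM in wild type (log2 1.26 ± 0.17, SE). CORI3 (AT4G23600), a coronatine- and jasmonate-induced cystine lyase, had 7.94, 8.62 and 14.4 CPM in exa1-1, against 1.84, 2.24 and 2.26 CPM in wild type, a 4.84-fold increase. PR5 (AT1G75040), a thaumatin-like protein, had 6.74, 4.24 and 14.0 CPM in exa1-1, against 2.13, 2.53 and 1.90 CPM in wild type (1.92 ± 0.51, SE). For these 3 genes too, exa1-1 replicate 3 was the highest. The basic PR gene PRB1 (AT2G14580) rose by 1.69 ± 0.38 and AOC1 (AT3G25760), an allene oxide cyclase of jasmonate synthesis, by 0.83 ± 0.16 (SE). EARLI1 (AT4G12480), a lipid transfer protein of systemic defence, rose by 1.85 ± 0.61 (SE), and by 1.06 without exa1-1 replicate 3. Jasmonate genes went both ways, with 5 of 25 higher (20%) and 3 lower (12%), against 8.27% and 11.2% of all genes. The higher count was 2 without exa1-1 replicate 1 or wild-type replicate 1 or 3, and 3 with the 6 libraries alone. The lower count was 1 without exa1-1 replicate 2 or wild-type replicate 1. The 3 lower ones were TIFY7 (AT1G70700), a JAZ repressor, at -0.51, the jasmonate-inactivating CYP94C1 (AT2G27690) at -0.87, and LOX3 (AT1G17420), a lipoxygenase of jasmonate synthesis, at -0.70. The call of CYP94C1 was lost without wild-type replicate 1 or 3 or exa1-1 replicate 1 or 2 and with limma on FPKM. That of LOX3 was lost without wild-type replicate 1 or 2 or exa1-1 replicate 1 or 2, with the 6 libraries alone and with limma on FPKM.

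Most genes on a list of root and root hair markers were higher in exa1-1. Of 19 markers tested, 14 rose and none fell, against 8.27% and 11.2% of all genes, and their median log2 difference was 0.90, against 0.00494 over all genes tested. PRP3 (AT3G62680), a proline-rich wall protein of root hairs, had 43.8, 36.1 and 33.8 CPM in exa1-1, against 17.5, 14.6 and 17.0 CPM in wild type (log2 1.22 ± 0.14, SE; edgeR adjusted p = 9.06e-07). HRGP1 (AT3G54590), a hydroxyproline-rich wall glycoprotein, had 130, 101 and 93.2 CPM in exa1-1, against 52.4, 45.3 and 47.5 CPM in wild type (1.16 ± 0.16, SE). The extensin genes EXT6, EXT10, EXT12 and EXT13, whose products are cross-linked into the wall, rose by 0.99 to 1.22. Summed over the list, the level was 3196, 2374 and 2274 CPM of all counts (not scaled by TMM factors) in exa1-1, against 1746, 1807 and 1788 in wild type. The genotypes did not overlap, and exa1-1 replicate 1 was the highest. In whole seedlings, more cells of a type and more RNA per cell cannot be told apart, and the part of root mass in this difference was not tested. The regulators that start root hair growth, RHD6 and RSL4, did not pass the test, at -0.04 ± 0.24 and 0.58 ± 0.46 (SE). Both were named after their values were seen. Not all genes of roots rose: the channel TIP2;3 and the root sulfate transporter SULTR1;2, described below, were lower. On 1/2 MS 11 of the 19 markers were higher, against 8.14% of all genes there, with a median of 0.42. The difference between 23 °C and 1/2 MS passed for 4 of them, each higher at 23 °C, against 2.06% of all genes.

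Related wall enzymes followed the same side in part. Of 61 class III peroxidases, enzymes that cross-link or loosen walls, 20 were higher (32.8%) and 8 lower (13.1%). The shares over all genes were 8.27% and 11.2%, so the lower peroxidases were near that of all genes. The peroxidase gene AT1G34510 had 8.15, 5.66 and 5.85 CPM in exa1-1, against 2.18, 1.99 and 2.18 CPM in wild type (log2 1.63 ± 0.17, SE). In contrast PER4 (AT1G14540) fell to 1.41, 1.25 and 1.55 CPM in exa1-1, against 4.01, 5.03 and 4.93 CPM in wild type (-1.73 ± 0.13, SE). Of 22 expansins, which loosen the wall, 8 were higher (36.4%) and 4 lower (18.2%), and 5 were higher without wild-type replicate 3. EXPA15 (AT2G03090) rose by 0.86 ± 0.10, while EXPA8 (AT2G40610) fell by 1.15 on the log2 scale (edgeR adjusted p = 3.58e-05, but 0.0502 with limma on FPKM).

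Genes for protein folding in the endoplasmic reticulum (ER) were moderately higher in exa1-1. Luminal chaperones hold and fold secreted proteins, and their genes are induced by the unfolded protein response through the sensor IRE1 and bZIP factors. Of 24 genes on the list, 14 rose (58.3%) and 4 fell (16.7%), against 8.27% and 11.2% of all genes. Their median log2 difference was 0.32. BIP1 (AT5G28540), an ER HSP70, had 153, 151 and 167 CPM in exa1-1, against 98.9, 109 and 102 CPM in wild type (log2 0.60 ± 0.06, SE; edgeR adjusted p = 1.3e-05). BIP2 (AT5G42020), which shares most of its sequence with BIP1, had 140, 143 and 148 CPM in exa1-1, against 89.5, 103 and 90.0 CPM in wild type (0.61 ± 0.07, SE). The groups did not overlap for either. The calreticulins CRT1a (AT1G56340) and CRT1b (AT1G09210), lectin chaperones, rose by 0.48 ± 0.06 and 0.40 ± 0.04, the disulfide isomerase PDIL1-2 (AT1G77510) by 0.45 ± 0.08 and the UDP-sugar transporter UTR1 (AT2G02810) by 0.68 ± 0.13 (SE). Over the list, the summed level was 2238, 2232 and 2348 CPM of all counts in exa1-1, against 1678, 1841 and 1759 in wild type. Other ER folding and stress genes did not rise. Only mRNA totals were read, so the activity of the stress factors below was not measured. The mRNAs of the stress factors BZIP28 and BZIP60 did not pass the test (-0.09 ± 0.05 and -0.04 ± 0.07, SE), and the 4 genes that fell were BIP3, EBS5, IRE1A and ERDJ3A. BIP3, the stress-induced BIP, had 3 counts in exa1-1 and 43 in wild type over 3 libraries each. These 6 genes were named after their values were seen. Without wild-type replicate 3 or exa1-1 replicate 3, 2 of the 4 lower calls were left.

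Promoters of 3 ER genes that hold a known ER stress motif are shown as examples, chosen among those that rose. Both motifs were searched on both strands in the same stretch of 250 bases: CCACGTCA, a bZIP element, and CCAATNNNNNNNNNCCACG, the ER stress element. The second motif may overlap the first. The stretches are chr1:21092710-21092959 (minus strand) for CRT1a, chr4:12556059-12556308 (minus) for SHD (AT4G24190), the ER HSP90, and chr1:29126398-29126647 (plus) for PDIL1-2. Capitals mark CCACGTCA in CRT1a and the ER stress element in SHD and PDIL1-2.
CRT1a: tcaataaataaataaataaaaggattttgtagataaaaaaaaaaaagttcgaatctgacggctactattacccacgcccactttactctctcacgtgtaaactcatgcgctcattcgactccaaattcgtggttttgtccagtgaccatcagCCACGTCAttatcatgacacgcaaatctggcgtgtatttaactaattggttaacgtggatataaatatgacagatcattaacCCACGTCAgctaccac
SHD: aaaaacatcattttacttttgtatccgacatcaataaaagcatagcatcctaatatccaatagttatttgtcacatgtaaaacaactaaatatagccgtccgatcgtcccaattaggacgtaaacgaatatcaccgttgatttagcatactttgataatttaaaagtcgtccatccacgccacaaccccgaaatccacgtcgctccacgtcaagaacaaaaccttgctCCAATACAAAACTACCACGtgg
PDIL1-2: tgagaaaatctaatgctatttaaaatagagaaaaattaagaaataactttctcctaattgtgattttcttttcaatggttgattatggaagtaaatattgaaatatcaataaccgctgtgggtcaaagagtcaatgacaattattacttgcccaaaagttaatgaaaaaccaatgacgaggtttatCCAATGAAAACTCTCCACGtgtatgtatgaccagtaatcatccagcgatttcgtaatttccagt
CCACGTCA occurred in 4 of the 24 ER genes (16.7%) and in 342 of 27443 protein-coding genes (1.25%). The ER stress element occurred in 5 of the 24 (20.8%) and in 84 of all (0.306%). Of the other members that held a motif, P58IPK (0.45), PDIL1-1 (0.37) and EBS1 (0.22) rose, while EBS5 fell by 0.27 on the log2 scale. The call of EBS1 was lost without wild-type replicate 1 or exa1-1 replicate 3. The promoters of BIP1, BIP2 and BIP3 held neither in this window. SHD rose by 0.38 ± 0.08 (SE). These members were named for their motifs after values were seen. The list is made of known ER stress genes, so motifs in it are a description and binding was not measured.

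Some genes for other chaperones and for ribosomal proteins were higher by smaller amounts. Of 22 cytosolic and organellar chaperones tested, 9 were higher and 3 lower, and 10 had no call. HSC70-1 (AT5G02500), the constitutive HSP70, had 1629, 1650 and 1917 CPM in exa1-1, against 1360, 1419 and 1335 CPM in wild type (log2 0.34 ± 0.08, SE). HSP81-3 (AT5G56010), a cytosolic HSP90, and ROF1 (AT3G25230), a heat-stress FKBP, rose by 0.34 ± 0.07 and 0.33 ± 0.09 (SE). Of 176 cytosolic ribosomal protein genes, taken by description, 53 were higher, 1 was lower and 122 had no call, 162 had a positive difference, and the median was 0.13. This count moved with scaling and with single libraries: it was 87 with total counts, 34 without wild-type replicate 1 and 32 without wild-type replicate 3. Summed over all 190 such genes with a row of counts, tested or not, ribosomal levels were 24769, 25112 and 25604 CPM of all counts in exa1-1. In wild type they were 20996, 23076 and 21868. Of 15 small heat shock proteins, chaperones that heat induces, 1 was higher and 1 lower (6.67% each). Of 19 heat shock factors 3 were lower (15.8%), against 8.27% higher and 11.2% lower of all genes. Under the alternatives these counts of genes moved between 0 and 3. The median of the small heat shock proteins, 0.65, was -0.21 without exa1-1 replicate 3.

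**Figure D2:**
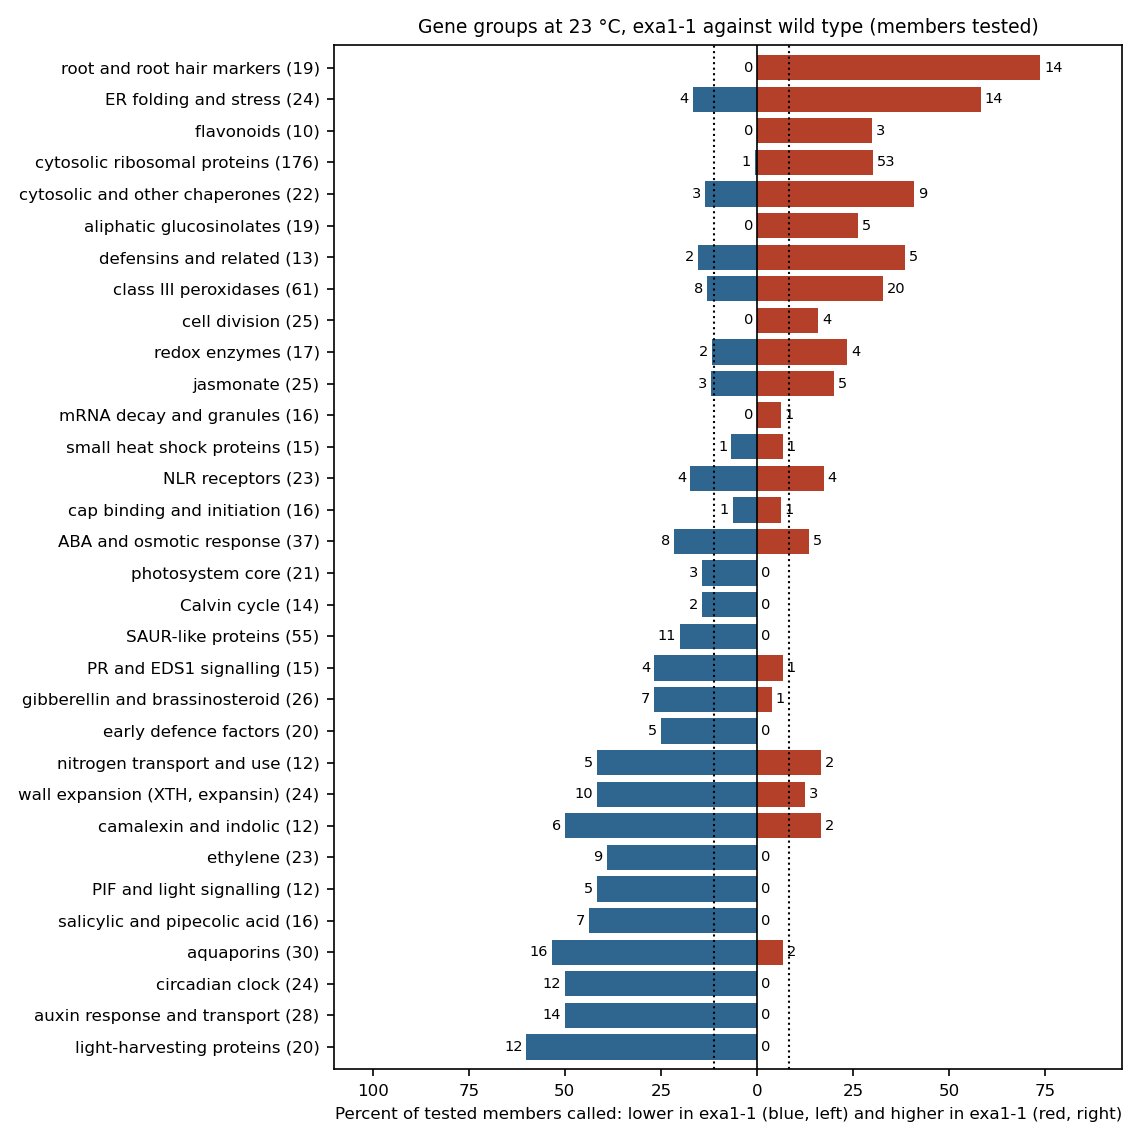
Percent of tested members called lower (blue, to the left) and higher (red, to the right) in exa1-1 for 32 gene groups, with the number called beside each bar and the number tested in brackets. Dotted lines mark the shares over all genes tested, 11.2% lower and 8.27% higher, and the root, ER and light-harvesting groups lie far beyond them.

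Genes of specialized metabolism also shifted. Of 10 tested flavonoid genes, 3 rose (30%) and none fell, against 8.27% and 11.2% of all genes. TT4 (AT5G13930), chalcone synthase, the entry enzyme of flavonoid synthesis, had 39.2, 30.6 and 32.7 CPM in exa1-1, against 12.9, 12.6 and 12.9 CPM in wild type, a 2.67-fold increase (log2 1.42 ± 0.11, SE; edgeR adjusted p = 9.28e-07). FLS1 (AT5G08640), flavonol synthase, had 12.2, 10.6 and 8.88 CPM in exa1-1, against 4.78, 5.28 and 6.06 CPM in wild type (0.97 ± 0.16, SE). AACT1 (AT5G61160), an acyltransferase with the description of an anthocyanin enzyme, rose 3.00-fold. Of 19 genes for aliphatic glucosinolates, the methionine-derived defence compounds, 5 rose and none fell, and 18 of 19 were above 0. CYP83A1 (AT4G13770), which oxidizes the aldoximes of this pathway, had 90.6, 83.5 and 83.7 CPM in exa1-1, against 64.4, 59.8 and 68.0 CPM in wild type. The number of higher glucosinolate genes was 9 with total counts as scaling and 8 with the 6 libraries alone, and 1 gene was lower without exa1-1 replicate 1. In sulfate assimilation, APR1 (AT4G04610) and APR3 (AT4G21990), APS reductases, rose by 0.33 ± 0.05 and 0.43 ± 0.11 (SE), while the root sulfate transporter SULTR1;2 (AT1G78000) fell by 0.79 on the log2 scale. TZP (AT5G43630), a zinc knuckle protein that acts in light signalling, had 31.0, 30.8 and 34.5 CPM in exa1-1, against 11.6, 12.7 and 11.5 CPM in wild type (1.42 ± 0.07, SE; edgeR adjusted p = 4.06e-10). LOB (AT5G63090), a boundary transcription factor, rose 2.90-fold.

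On the other side, light-harvesting genes were lower in exa1-1. Their products bind chlorophyll and feed both photosystems. Of 20 tested, 12 fell (60%) and none rose, against 11.2% and 8.27% of all genes, with a median of -0.48. CAB2 (AT1G29920) had 15.1, 13.9 and 13.6 CPM in exa1-1, against 40.2, 34.0 and 33.4 CPM in wild type (log2 -1.33 ± 0.10, SE; edgeR adjusted p = 2.3e-08). LHCB3 (AT5G54270) had 110, 104 and 86.9 CPM in exa1-1, against 192, 190 and 190 CPM in wild type (-0.92 ± 0.10, SE). LHCA4 (AT3G47470), of photosystem I, had 397, 392 and 323 CPM in exa1-1, against 726, 635 and 674 CPM in wild type. In these 3 genes exa1-1 replicate 3 was the lowest of all libraries. CAB1 (AT1G29930), the most abundant of the class, averaged 5127 ± 498 CPM in exa1-1 and 7253 ± 404 CPM in wild type (SD, n = 3). The CAB1, CAB2 and CAB3 genes lie in tandem and share sequence, so reads may be divided among them. Summed over the list, the level was 20187, 19423 and 16647 CPM of all counts in exa1-1, against 27199, 24277 and 25598 in wild type.

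Counts for the rest of the photosynthetic apparatus turned on exa1-1 replicate 3. With all libraries, 14.3% of photosystem core genes and 14.3% of Calvin cycle genes were lower, against 11.2% of all genes. Of 21 photosystem core genes 3 fell and none rose, against 6 that fell without exa1-1 replicate 3 and 1 that rose without exa1-1 replicate 2. Of 14 Calvin cycle genes 2 fell, 11 fell without exa1-1 replicate 3, and 1 fell without any other library at 23 °C, with the 6 libraries alone or with DESeq2. RBCS1A (AT1G67090), a Rubisco small subunit, had 4498, 4362 and 6142 CPM in exa1-1, against 5930, 5963 and 5843 CPM in wild type. Replicates 1 and 2 of exa1-1 lay below wild type and replicate 3 above it, and the gene was not called (-0.24 ± 0.16, SE), but it was at -0.40 without exa1-1 replicate 3 (edgeR adjusted p = 0.000266). The same library had 21320 CPM of all counts summed over the Calvin cycle genes, against 15387 and 15106 in the other exa1-1 libraries and 18430, 19132 and 18552 in wild type.

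**Figure D3:**
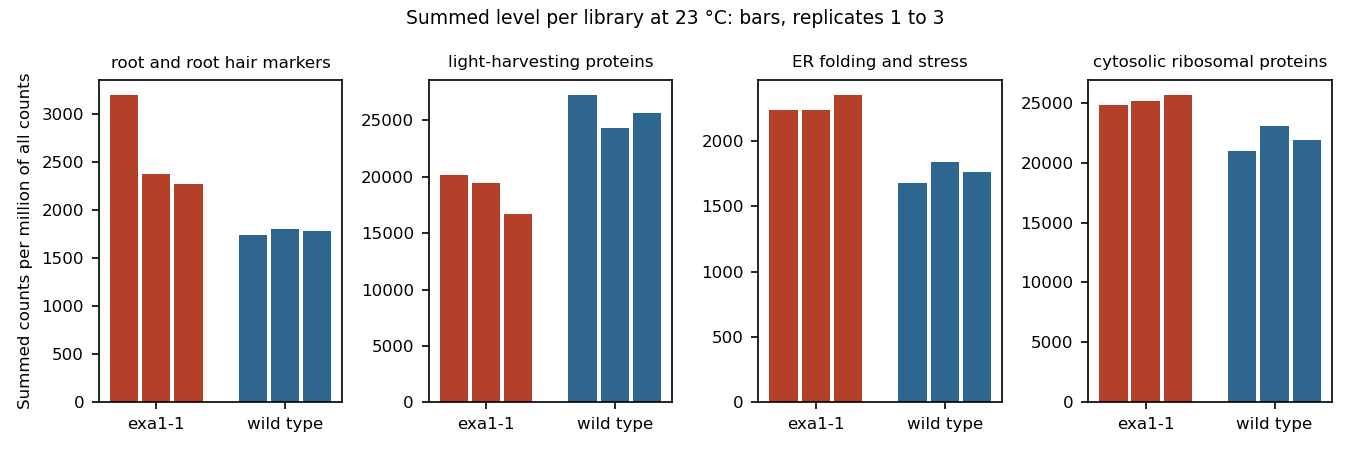
Summed CPM of all counts for 4 gene groups, 1 bar per library, exa1-1 on the left (red) and wild type on the right (blue), on axes that start at 0. Root and ER sums are higher and light-harvesting sums lower in each exa1-1 library than in each wild-type library, and ribosomal sums are 24769 to 25604 in exa1-1 and 20996 to 23076 in wild type.

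Genes of auxin response were lower in exa1-1. Auxin, a growth hormone, rapidly induces AUX/IAA repressors, GH3 conjugating enzymes and SAUR genes. Of 28 tested genes of auxin response and transport, 14 fell (50%) and none rose, against 11.2% and 8.27% of all genes. The median was -0.59, but with total counts or the 6 libraries alone 1 gene rose. IAA7 (AT3G23050) had 63.2, 68.3 and 64.2 CPM in exa1-1, against 153, 122 and 141 CPM in wild type (log2 -1.09 ± 0.10, SE; edgeR adjusted p = 4.49e-08). IAA2 (AT3G23030) had 27.6, 27.7 and 27.5 CPM in exa1-1, against 55.0, 54.6 and 55.2 CPM in wild type (-0.99 ± 0.01, SE). IAA19 (AT3G15540), a gene of elongating hypocotyls, had 2.44, 2.36 and 3.10 CPM in exa1-1, against 5.76, 5.57 and 6.24 CPM in wild type. Libraries of the genotypes did not overlap for these AUX/IAA genes. SHY2 (AT1G04240), the repressor IAA3, fell by 0.95 on the log2 scale and PIN3 (AT1G70940), an auxin efflux carrier, by 0.68. Of 55 SAUR genes 11 fell (20%) and none rose. With DESeq2, or when any library but exa1-1 replicate 3 was left out, 5 to 7 fell, near the share over all genes. Without exa1-1 replicate 2, 1 was higher.

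Factors that couple light and the clock to elongation were lower too. Of 12 PIF and light signalling genes 5 fell (41.7%) and none rose, against 11.2% and 8.27% of all genes. PIF4 (AT2G43010), a bHLH factor that promotes elongation, had 16.3, 15.8 and 9.13 CPM in exa1-1, against 29.0, 24.6 and 25.8 CPM in wild type (log2 -0.94 ± 0.28, SE). PIF5 (AT3G59060, listed as PIL6), its close relative, had 23.7, 26.4 and 21.2 CPM in exa1-1, against 50.4, 40.8 and 44.8 CPM in wild type (-0.93 ± 0.13, SE). HFR1 (AT1G02340), a light-stabilized bHLH factor, fell by 0.77 on the log2 scale. Of 24 clock genes 12 fell, and none rose except 1 without exa1-1 replicate 3. TOC1 (AT5G61380), an evening repressor, had 196, 188 and 168 CPM in exa1-1, against 264, 241 and 250 CPM in wild type (-0.45 ± 0.08, SE). LUX (AT3G46640, listed as PCL1), of the evening complex, fell by 0.55 and RVE1 (AT5G17300), a MYB-like factor linked to auxin, by 0.84 on the log2 scale. The labels give no hour of harvest, and its part in the clock values was not tested.

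Among xyloglucan enzymes of the wall and water channels, more genes fell than rose. For comparison, 11.2% of all genes fell and 8.27% rose. Of 26 xyloglucan endotransglucosylases (XTH), which cut and rejoin wall xyloglucan, 12 were lower and 5 higher, and 2 or 3 were higher without wild-type replicate 2 or 3 or exa1-1 replicate 1. XTH15 (AT4G14130) had 107, 160 and 82.5 CPM in exa1-1, against 413, 289 and 353 CPM in wild type (log2 -1.59 ± 0.32, SE; edgeR adjusted p = 2.28e-05). TCH4 (AT5G57560), a touch-induced XTH, had 74.1, 130 and 86.1 CPM in exa1-1, against 245, 179 and 215 CPM in wild type (-1.14 ± 0.28, SE). XTH33 (AT1G10550) fell by 1.28 on the log2 scale, while XTH31 (AT3G44990) rose by 0.65 ± 0.10 (SE). Both falling XTH genes with per-library values had their highest exa1-1 value in replicate 2 and their lowest wild-type value in replicate 2, and the genotypes did not overlap. Of 30 aquaporins, the water channels, 16 were lower and 2 higher, with 9 lower without wild-type replicate 1 and 10 without wild-type replicate 3. TIP2;3 (AT5G47450), a vacuolar water and ammonium channel of roots, had 8.80, 6.30 and 7.00 CPM in exa1-1, against 33.9, 23.7 and 28.3 CPM in wild type (-1.95 ± 0.21, SE). Without wild-type replicate 1 or 2 or exa1-1 replicate 1, 1 aquaporin was higher.

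Among the other growth hormones, the gibberellin and brassinosteroid list had 7 of 26 genes lower and 1 higher. These are 26.9% lower and 3.85% higher, against 11.2% and 8.27% of all genes. GAI (AT1G14920), a DELLA repressor of gibberellin response, had 39.2, 42.1 and 35.7 CPM in exa1-1, against 62.9, 61.6 and 58.9 CPM in wild type (log2 -0.65 ± 0.07, SE). CPD (AT5G05690), a P450 of brassinosteroid synthesis, fell by 0.58 on the log2 scale. Of 23 ethylene genes 9 fell (39.1%) and none rose. EIN3 (AT3G20770), the main transcription factor of the pathway, had 151, 151 and 143 CPM in exa1-1, against 210, 203 and 211 CPM in wild type (-0.49 ± 0.03, SE). ERF6 (AT4G17490), an ethylene response factor, had 5.12, 5.02 and 5.02 CPM in exa1-1, against 11.1, 8.76 and 10.6 CPM in wild type (-1.01 ± 0.11, SE). ACS8 (AT4G37770), an ethylene synthesis gene, was nearly silent, with 2, 1 and 1 counts in exa1-1, against 30, 37 and 34 counts in wild type. These ethylene genes were lower in the same libraries in which PDF1.2 was higher.

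Defence genes of the salicylic acid and camalexin branches fell. Salicylic acid and N-hydroxypipecolic acid signal systemic resistance to biotrophic pathogens, and camalexin is an antimicrobial indole made from tryptophan. Of 16 genes for making and sensing the signals, 7 fell (43.8%) and none rose, against 11.2% and 8.27% of all genes. FMO1 (AT1G19250), which makes N-hydroxypipecolic acid, had 0.928, 0.976 and 1.70 CPM in exa1-1, against 4.27, 5.93 and 4.86 CPM in wild type (log2 -2.07 ± 0.29, SE; edgeR adjusted p = 5.95e-06). PBS3 (AT5G13320), which conjugates isochorismate in salicylic acid synthesis, had 0.825, 1.01 and 1.73 CPM in exa1-1, against 3.58, 4.74 and 4.09 CPM in wild type (-1.80 ± 0.32, SE). CBP60g (AT5G26920), a calmodulin-binding activator of that synthesis, had 7.91, 7.04 and 7.22 CPM in exa1-1, against 19.0, 18.1 and 19.1 CPM in wild type (-1.34 ± 0.06, SE). All 3 lay below wild type in each exa1-1 library. The salicylic acid hydroxylase DMR6 (AT5G24530) fell by 0.75 on the log2 scale. Of 12 genes of camalexin and indolic compounds, 6 fell and 2 rose, but the rising count was 0 without wild-type replicate 1 or 3 or exa1-1 replicate 1, and 1 without wild-type replicate 2 or with DESeq2. AT1G26390, a berberine bridge-like oxidase, had the largest fall among genes that averaged at least 1 log2 CPM and did not overlap, with 4.40, 3.27 and 4.62 CPM in exa1-1, against 29.8, 22.7 and 24.8 CPM in wild type, a 6.28-fold difference. CYP71A12 (AT2G30750) and PAD3 (AT3G26830), P450 enzymes of camalexin synthesis, fell by 1.48 and 1.43 on the log2 scale.

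Early defence factors and immune receptors showed mixed or smaller changes. Over all genes tested, 8.27% were higher and 11.2% lower in exa1-1. Of 20 early defence factors 5 fell and none rose, among them WRKY22 (AT4G01250), at 4.09, 5.72 and 4.22 CPM in exa1-1, against 9.90, 8.29 and 8.74 CPM in wild type (log2 -0.93 ± 0.17, SE). Of 15 PR and EDS1 pathway genes 4 fell and 1, PR5, rose. With total counts, or without exa1-1 replicate 1 or 2, 2 rose. Of 23 NLR receptor genes, 4 were higher and 4 lower, with 7 lower without exa1-1 replicate 3. ADR1 (AT1G33560), a helper NLR, had 14.8, 12.5 and 15.9 CPM in exa1-1, against 9.30, 10.3 and 9.87 CPM in wild type (0.55 ± 0.11, SE). Its homologue ADR1-L2 (AT5G04720) had 55.6, 54.5 and 51.6 CPM in exa1-1, against 70.6, 64.0 and 69.5 CPM in wild type (-0.34 ± 0.05, SE). SNC1 (AT4G16890), an NLR receptor studied through a gain-of-function mutant, had 56.7, 53.3 and 69.5 CPM in exa1-1, against 69.1, 71.9 and 73.0 CPM in wild type. The genotypes overlapped, and the call at 23 °C (-0.26 ± 0.12, SE; edgeR adjusted p = 0.0252) was lost without any library but exa1-1 replicate 3, with total counts, with the 6 libraries alone and with limma on FPKM. SNC1 was named after its values were seen. Of 16 genes of cap binding and initiation, the machinery EXA1 associates with, 1 was higher (4 with total counts and 3 with DESeq2). Another 1 was lower (2 with DESeq2). In the main test both shares were 6.25%, not far from those over all genes. PAB4 (AT2G23350), a poly(A) binding protein, rose by 0.29 ± 0.08 (SE), and NCBP (AT5G18110), a cap-binding protein, fell by 0.27 on the log2 scale.

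Genes of nitrogen use and sugar depletion fell in part. Of 12 nitrogen genes 5 were lower (41.7%) and 2 higher (16.7%), against 11.2% and 8.27% of all genes. ASN1 (AT3G47340), an asparagine synthetase of darkness and low sugar, had 849, 784 and 698 CPM in exa1-1, against 1853, 1297 and 1598 CPM in wild type (log2 -1.03 ± 0.17, SE). NRT1.5 (AT1G32450), which loads nitrate into the xylem, had 296, 285 and 274 CPM in exa1-1, against 494, 456 and 476 CPM in wild type (-0.74 ± 0.05, SE). All 5 sugar-depletion markers were lower, and 2 without wild-type replicate 1, the library in which they were highest. DIN2 (AT3G60140), a beta-glucosidase of darkened leaves, had 5.67, 5.22 and 5.67 CPM in exa1-1, against 18.2, 8.36 and 12.9 CPM in wild type (-1.24 ± 0.32, SE). ERD5 (AT3G30775), a proline dehydrogenase that low sugar also induces, had 748, 824 and 765 CPM in exa1-1, against 1666, 1095 and 1387 CPM in wild type. CAT2 (AT4G35090), the main leaf catalase, had 116, 95.7 and 110 CPM in exa1-1, against 218, 172 and 191 CPM in wild type (-0.85 ± 0.13, SE).

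The other unstressed set, on 1/2 MS, gave a second reading of the same genotypes in libraries shared with none of those at 23 °C. There 3920 of 21462 genes (18.3%) differed between exa1-1 and wild type, with 8.14% higher and 10.1% lower. Of genes tested in both sets, 1530 were called in both, which is 37.8% of the calls at 23 °C and 39.9% of those on 1/2 MS. Of these, 1455 had the same direction and 75 the opposite one, and 3324 of the calls at 23 °C (82.2%) had the same sign on 1/2 MS. Across 20628 genes, which are not independent replicates, the log2 differences correlated at 0.53 (Pearson) and 0.43 (Spearman), as a description. The difference between the effects itself passed the test in 745 of 21262 genes (3.5%), with 437 higher and 308 lower at 23 °C. This count was 281 without wild-type replicate 3 and 369 without wild-type replicate 1 at 23 °C. It was 344 to 479 without any 1 of the exa1-1 libraries or without wild-type replicate 1 or 3 on 1/2 MS.

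Defensin, auxin, light-harvesting and camalexin genes were called in both sets, though not all with like sizes. PDF1.2 differed by 4.57 at 23 °C and 4.88 on 1/2 MS, IAA7 by -1.09 at 23 °C and -0.96 on 1/2 MS, and LHCB3 by -0.92 at 23 °C and -0.79 on 1/2 MS. On 1/2 MS, 20 of the auxin genes, 16 of the light-harvesting genes and 8 of the camalexin genes were lower, against 10.1% of all genes there. For 4 of 28 auxin genes the difference between the sets passed, each higher at 23 °C, against 2.06% of all genes. They include the conjugating enzymes GH3.3 (AT2G23170), at -0.11 at 23 °C and -1.78 on 1/2 MS (difference 1.69; edgeR adjusted p = 0.000252), and GH3.2 (AT4G37390, listed as BRU6), at -0.75 at 23 °C and -1.58 on 1/2 MS. GH3.5 (AT4G27260, listed as WES1) was at -0.57 at 23 °C and -1.01 on 1/2 MS. These 3 were named after their values were seen. The difference also passed for 1 of 20 light-harvesting genes, lower at 23 °C, for 1 of 12 camalexin genes, higher at 23 °C, and for none of the listed defensin genes. ER folding genes differed between the sets. On 1/2 MS 1 ER gene was higher and 7 lower, and the difference between the sets was higher at 23 °C for 12 of 24 genes and lower for none, against 2.06% higher and 1.45% lower of all genes. BIP1 differed by 0.60 at 23 °C and by -0.09 on 1/2 MS, a difference of 0.71 ± 0.07 (SE; edgeR adjusted p = 0.000228), and BIP2 by 0.61 at 23 °C and -0.11 on 1/2 MS (0.74 ± 0.07, SE; edgeR adjusted p = 0.000212). Aliphatic glucosinolate genes likewise had 9 of 19 differences higher at 23 °C, with CYP83A1 at 0.42 at 23 °C and -0.16 on 1/2 MS. APR3 was higher at 23 °C (0.43) and lower on 1/2 MS (-0.47). In the opposite sense, NRT2.1 (AT1G08090), a high-affinity nitrate transporter, was lower at 23 °C (-0.80) and higher on 1/2 MS (0.97). The indole glucosinolate methyltransferase IGMT4 (AT1G21130) was -0.84 at 23 °C and 0.02 on 1/2 MS. CAT2 was -0.85 at 23 °C and -0.01 on 1/2 MS, and ERD5 -0.83 at 23 °C and 0.08 on 1/2 MS. The tests of all these differences passed.

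**Figure D4:**
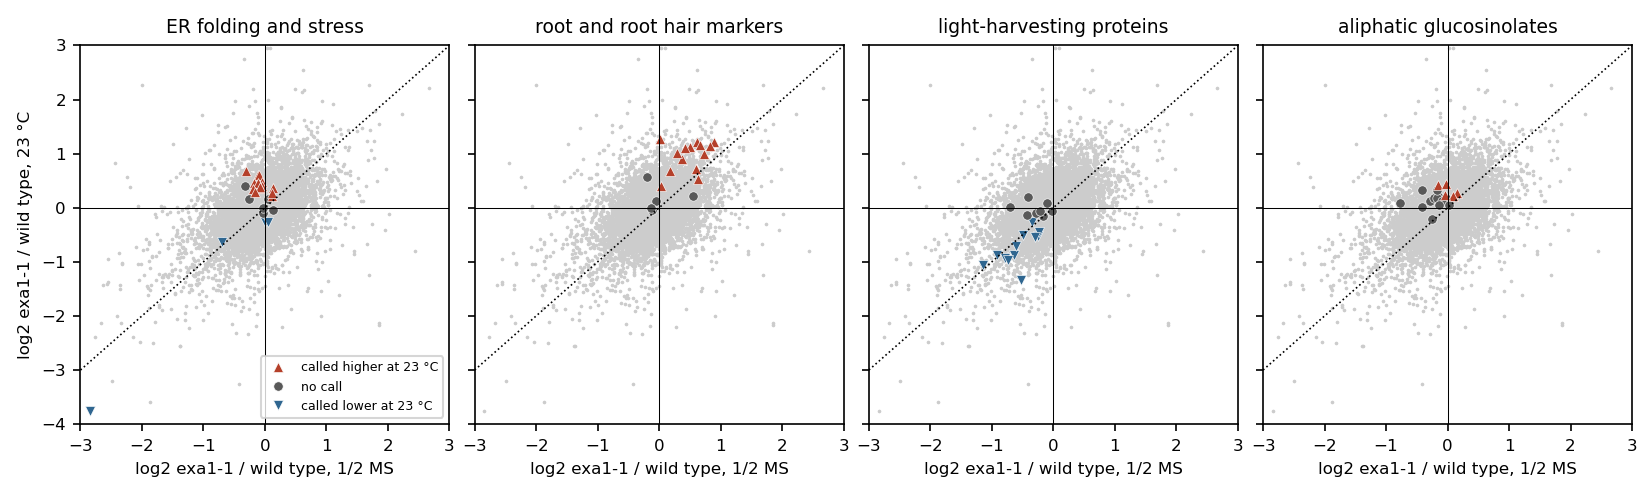
Log2 differences of exa1-1 over wild type on 1/2 MS (x) and at 23 °C (y) for members of 4 groups, coloured by the call at 23 °C, over all genes in grey, with a dotted line of equal values (23 genes lie outside the axes). ER members called higher sit above the dotted line near 0 on 1/2 MS, and most light-harvesting members called lower lie near it.

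At 39 °C, 5121 genes (24.4%) differed between the genotypes. That contrast comes from the same 12-library analysis but shares no library with the one at 23 °C. The genotype effect itself changed between the temperatures in 1687 genes (8.04%), 914 (4.36%) higher and 773 (3.69%) lower at 39 °C. This count was 965 without wild-type replicate 3 and 1092 without wild-type replicate 1 at 23 °C, and 1043 without exa1-1 replicate 3 at 39 °C. TZP turned round: its log2 difference was -0.42 at 39 °C and 1.42 at 23 °C (difference -1.84 ± 0.09, SE; edgeR adjusted p = 2.86e-09). TT4 was at -0.31 at 39 °C, where it did not pass, and 1.42 at 23 °C, and the difference of -1.73 passed (edgeR adjusted p = 1.56e-05). FLS1, at -0.43 at 39 °C and 0.97 at 23 °C, likewise differed by -1.41 (edgeR adjusted p = 0.00183). NRT1.5 was higher at 39 °C (0.64) and lower at 23 °C (-0.74), a difference of 1.38. XTH15 was 0.20 at 39 °C and -1.59 at 23 °C, a difference of 1.79. The B-box factors BBX14 (AT1G68520) and BBX15 (AT1G25440) were -1.34 and -1.37 at 39 °C, and 0.04 and 0.25 at 23 °C. PDF1.2 (3.50), FMO1 (-1.79), CBP60g (-1.36) and AT1G26390 (-2.69) kept their direction at 39 °C, and none of these 4 differences passed the test.

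**Figure D5:**
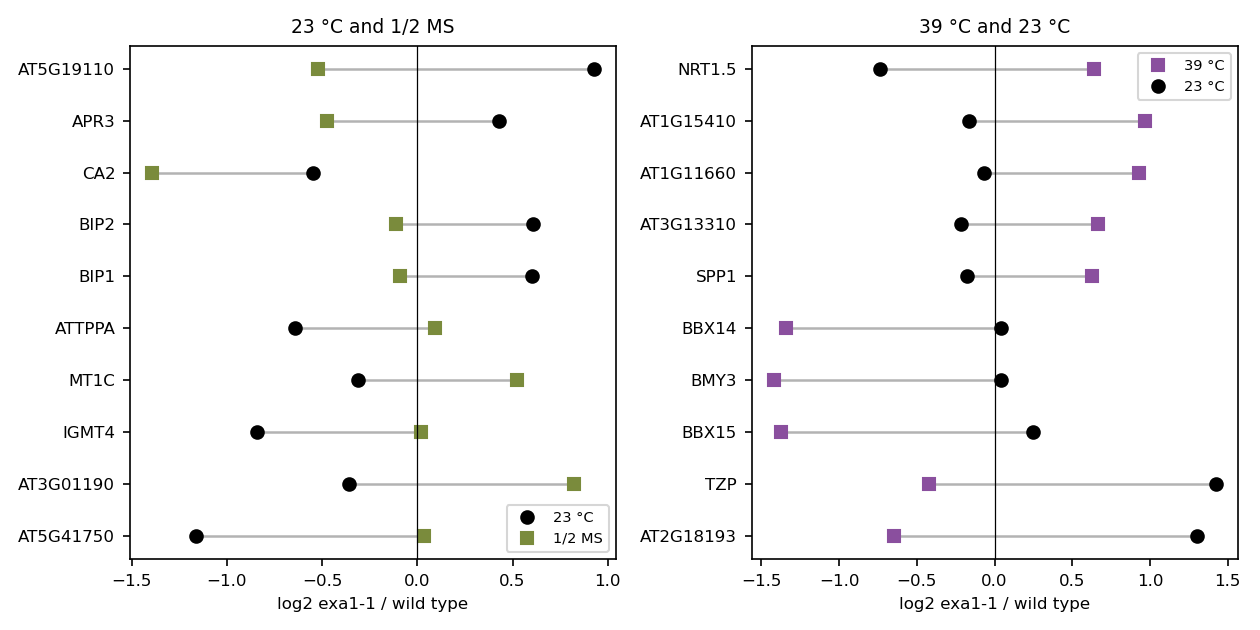
Genotype differences (log2 exa1-1 over wild type) at 23 °C (black circles) and on 1/2 MS (green squares, left panel) or at 39 °C (purple squares, right panel). For each difference of effects, the 5 genes with the smallest adjusted p in each direction are shown, among genes that averaged at least 1 log2 CPM at 23 °C. BIP1 and BIP2 are at 0.60 and 0.61 at 23 °C and near 0 on 1/2 MS, and TZP lies below 0 at 39 °C and above 0 at 23 °C.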

How the data were processed

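Whole-seedling mRNA libraries of exa1-1 and wild type were compared, 3 of each at 23 °C, within a heat series of 12 libraries. HISAT2 2.0.4, HTSeq 0.6.1p1 and TAIR10 are named in the submitters' processing notes. Strand setting and annotation release are not stated in the labels. The authors deposited counts per gene for 32833 genes and FPKM values for 28251 genes.

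Counts were tested with edgeR 4.0.16 (R 4.3.3; TMM factors, filterByExpr, quasi-likelihood F test, Benjamini-Hochberg threshold 0.05), with 1 mean per group over the 12 libraries. The contrast was exa1-1 minus wild type at 23 °C. Differences of effects were tested in the same way, for 23 °C minus 1/2 MS over the 12 unstressed libraries and for 39 °C minus 23 °C in the heat series. The genotype difference on 1/2 MS came from a fit of the salt series. The procedure was tested on simulated data. CPM values use TMM-scaled library sizes, and the SE of a log2 difference is that of log2 CPM values with a prior count of 2. Adjusted p-values are edgeR's unless limma or DESeq2 is named. Alternatives were DESeq2 1.42.0, limma 3.58.1 on the deposited FPKM, other scalings and filters, the 6 libraries alone, a replicate block and each library left out.

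The members and gene lists were chosen with earlier results of these data known. Genes named are EXA1 and its 2 homologues, and the 15 largest increases and 15 largest decreases (adjusted p under 0.05, mean of at least 1 log2 CPM, no overlap). Up to 6 genes of each list, by adjusted p, were added. So were the 5 smallest adjusted p in each direction of each difference, with the same limit on the mean. The 10 protein-coding genes with the highest FPKM complete the set. Only some of them are described, and exceptions are said. Libraries are replicates as labelled; where they share a culture, p-values measure only the spread between libraries. Counting error alone sets the floor of 3 counts. Identifiers are those in the files; positions and sequences are from RefSeq's TAIR10.1.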

Additional observations from a re-analysis of the deposited data

Results flagged for a closer look

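The genotype difference itself changed between sets of libraries, by the edgeR test of the difference of effects with Benjamini-Hochberg adjustment over all genes tested. Between 23 °C and 1/2 MS it changed in 745 genes, and between 39 °C and 23 °C in 1687 genes.

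Of 112 genes named above, 33 passed for the difference between 23 °C and 1/2 MS, against 3.5% of all genes tested. Some were named for a small adjusted p in this same test, so the count is partly set by that choice. Values are log2 exa1-1 over wild type at 23 °C minus the same on 1/2 MS, so a positive one means that the genotype difference was higher at 23 °C. ER folding genes were positive, at 0.71 for BIP1, 0.74 for BIP2, 0.47 for CRT1b, 0.55 for CRT1a, 0.65 for PDIL1-2, 1.00 for UTR1, 0.57 for P58IPK and 0.48 for SHD. So were the cytosolic chaperones HSC70-1 (0.58), HSP81-3 (0.46) and ROF1 (0.47). Genes of sulfur and specialized metabolism were also positive, with APR1 at 0.71, APR3 at 0.92, CYP83A1 at 0.60, TT4 at 0.68 and AACT1 at 0.85. The same held for the wall genes AT1G34510 (1.01), EXPA15 (0.50) and PRP3 (0.62), and for BBX15 (0.44). The auxin genes GH3.3 (1.69), GH3.2 (0.84) and GH3.5 (0.47) were positive too. Negative values were found for the transporters and channels NRT2.1 (-1.76), SULTR1;2 (-0.47) and TIP2;3 (-1.01). They were also found for IGMT4 (-0.85), CAB2 (-0.78), CAT2 (-0.82), ERD5 (-0.89), EIN3 (-0.28), ACS8 (-2.62) and EXA1 (-0.31).

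For the difference between 39 °C and 23 °C, 26 of the named genes passed, against 8.04% of all genes tested. Here too some were named for a small adjusted p in the same test. A positive value means that the genotype difference was higher at 39 °C. Positive values were found for BIP3 (3.76), ERDJ3A (0.80), BZIP28 (0.46), EXT13 (1.91), PRP3 (1.11), XTH15 (1.79), NRT1.5 (1.38) and PAD3 (1.21). The hormone and clock genes GAI (0.46), CPD (0.55), IAA7 (0.61), LUX (0.49) and RVE1 (0.68) were positive as well. Negative values were found for TZP (-1.84), TT4 (-1.73), FLS1 (-1.41), BBX14 (-1.38), BBX15 (-1.62) and PR5 (-1.79). In the ER, CRT1b (-0.42), CRT1a (-0.33), PDIL1-2 (-0.60), PDIL1-1 (-0.33) and BIP2 (-0.32) were negative, and so were APR1 (-0.39) and EXA1 itself (-0.95).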

How the results depend on the processing

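Among 283 genes followed at 23 °C, none was called in the opposite direction under any alternative run for single genes. DESeq2 lost 12 calls and gained 6, and leaving out wild-type replicate 1 lost 35 and gained 3. The count of 4077 genes at 23 °C ranged from 2482 to 3670 without single libraries, with 1143 to 1753 higher and 1339 to 1917 lower. Total counts as scaling gave 2730 higher genes. Limma on FPKM gave 1125 lower genes with a pseudocount of 0.1 and 1443 with 1. A test against a log2 change of 0.5 left 212 genes, 74 higher and 138 lower.

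The difference between 23 °C and 1/2 MS ranged from 281 to 919 genes without single libraries, with 168 to 509 higher and 113 to 410 lower. Total counts gave 695 higher and DESeq2 469 lower. The difference between 39 °C and 23 °C ranged from 965 to 1596 genes, with 437 to 866 higher and 487 to 819 lower, and total counts gave 403 higher and 1563 lower. The causes of these shifts, and of those at 23 °C, were not tested. Calls over all list members ranged from 195 to 257, against 249.

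With the replicate number as a block, 4022 genes were called at 23 °C (1703 higher, 2319 lower), of which 3884 were also called without it. The block gave 630 genes (371 higher, 259 lower) for the difference between 23 °C and 1/2 MS and 1651 (883 higher, 768 lower) for that between 39 °C and 23 °C, and 252 list members. Deviations of same-numbered exa1-1 and wild-type libraries at 23 °C correlated at -0.02 to 0.05 over 3 pairs. Differently numbered ones reached -0.06 and 0.06. The values gave no sign of pairing by number, but 3 pairs cannot exclude a shared culture or day.

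Genes with few counts, such as BIP3, ACS8 and PDF1.2b, are limited by counting error.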

Other observations

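Some gene families taken by their descriptions, not described above, also held calls at 23 °C. Of 47 core histone genes tested, 6 were lower and 1 higher in exa1-1. Of 54 WRKY factors, 10 were lower and 2 higher. Of 65 lipid transfer protein genes, 17 were higher and 5 lower, and of 171 cytochromes P450, 29 were higher and 16 lower. Pentatricopeptide repeat proteins, which act on organelle RNA, had 11 of 239 higher and 3 lower. Over all genes tested, 8.27% were higher and 11.2% lower.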
